A study of Mus musculus with 12 samples.

Results

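The genes described here build and organise centrioles, centrosomes and basal bodies. They were chosen by gene symbol: Cep followed by a digit, Cetn followed by a digit, or 1 of 16 further symbols such as Ccp110, Sass6, Plk4, Poc1b, Nin and Odf2. The array carried 96 such probes for 53 genes, out of 45281 probes in all. A probe was kept if its detection p-value was under 0.01 on at least 3 of 12 arrays, which left 41 probes for 30 genes among 9381 genes tested. Tracheal epithelial cells of male C57BL/6J mice were grown as primary cultures on Transwell membranes with air above and medium below (air-liquid interface, ALI), a setting in which basal progenitors form ciliated and secretory cells. Every culture carried a lentivirus, which delivered either a Myb shRNA or a scrambled shRNA, so the scrambled cultures share the transduction. There were 4 groups of 3 biological replicates: ALI day 9 Myb shRNA, day 9 scrambled shRNA, day 3 Myb shRNA and day 3 scrambled shRNA. The labels do not say whether replicates came from separate mice, so p-values measure the spread between these cultures.

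Centrioles are barrels of microtubules. A pair of them forms the core of the centrosome of a dividing cell, where a new centriole grows beside each old one once per cycle. An airway cell that becomes multiciliated instead makes a large number of centrioles at once, partly on its existing centrioles and partly on deuterosomes, structures found in multiciliated cells. The new centrioles move to the apical membrane, dock there through their distal appendages and, as basal bodies, template the motile cilia. Myb encodes a transcription factor that is present early in this programme in airway progenitors.

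Among the 30 genes, the 4 with the largest day 3 differences were Cetn4, Cep83, Ccp110 and Cep78, and for each the 250 bases before the outermost start in the promoter table are given, since the motif counts below rest on such windows. Set against the widest span of each gene in RefSeq's gene table, the Cetn4 window lies before the gene, those of Cep83 and Ccp110 reach into it, and that of Cep78 lies inside it. The sequences are from RefSeq, build GRCm38.p6, written 5′ to 3′ on the gene's strand: chr3:37312447-37312696 on the minus strand for Cetn4, chr10:94688540-94688789 on the plus strand for Cep83, chr7:118712293-118712542 on the plus strand for Ccp110 and chr19:15984990-15985239 on the minus strand for Cep78. Capitals mark matches, on either strand, to any of the motifs TAACTG or TAACGG and CAACTG or CAACGG, which Myb proteins bind.
Cetn4: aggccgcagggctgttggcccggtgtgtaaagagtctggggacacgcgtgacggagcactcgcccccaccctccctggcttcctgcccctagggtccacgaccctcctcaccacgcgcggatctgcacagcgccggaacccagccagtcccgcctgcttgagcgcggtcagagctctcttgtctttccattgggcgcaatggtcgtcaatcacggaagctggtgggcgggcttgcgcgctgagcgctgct
Cep83: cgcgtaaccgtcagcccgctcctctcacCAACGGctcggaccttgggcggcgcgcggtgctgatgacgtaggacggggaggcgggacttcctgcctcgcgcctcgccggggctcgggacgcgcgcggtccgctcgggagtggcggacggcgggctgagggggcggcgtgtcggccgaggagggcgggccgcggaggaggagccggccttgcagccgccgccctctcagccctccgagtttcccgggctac
Ccp110: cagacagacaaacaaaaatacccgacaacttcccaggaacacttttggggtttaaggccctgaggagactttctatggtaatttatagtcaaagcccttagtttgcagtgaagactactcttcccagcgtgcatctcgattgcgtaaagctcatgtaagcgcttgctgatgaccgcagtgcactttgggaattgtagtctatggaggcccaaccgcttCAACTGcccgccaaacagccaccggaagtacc
Cep78: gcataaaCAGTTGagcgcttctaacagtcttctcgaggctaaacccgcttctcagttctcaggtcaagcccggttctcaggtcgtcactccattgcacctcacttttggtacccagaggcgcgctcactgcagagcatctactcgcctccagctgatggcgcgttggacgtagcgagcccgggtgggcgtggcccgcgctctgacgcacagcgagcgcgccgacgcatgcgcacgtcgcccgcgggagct
Cep83, Ccp110 and Cep78 each had 1 such match, and Cetn4 had none in this window. Of the 30 genes, 29 matched the promoter table, and 9 of these (31%) held a Myb-type match, against 1601 of 7536 tested genes with an entry (21.2%). Among the 16 genes that were lower at day 3 with Myb shRNA the count was 5, and it was 4 among the other 13. The short X-box letters GTTGCC or GTTACC, part of the site of the ciliary RFX factors, lay in the windows of 4 of 29 genes (13.8%), against 15.4% of tested genes. The full X-box, which can hold those letters, was in 0 of 29 windows, against 0.531% of tested genes. E2F-type letters (TTTGGCGC, TTTCCCGC, TTTGCCGC or TTTCGCGC) were in 2, those of Cep63 and Cep128 (6.9%, against 3.61%). These letters were also searched on both strands, and a match is a description of the window only.

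The 30 genes differed in how widely they were detected. Probes of 21 genes passed on all 12 arrays, those of 5 on 8 to 11 arrays and those of 4 (Cenpj, Cep128, Cep162 and Cep85) on 3 to 5. The other 23 genes gave 3 with 2 detections (Cep135, Cep295nl and Cetn2), 3 with 1 (Cep192, Cep68 and Plk4) and 17 with 0, among them Stil, Pcm1, Ofd1, Poc5, Sclt1 and Cntrob. Plk4, the kinase that starts centriole assembly, was detected on 1 day 3 scrambled array. Cetn2 was detected on 2 day 9 scrambled arrays. Just inside the minimum, Cenpj and Cep85 had mean log2 intensities of 5.38 and 5.29 over the 12 arrays, and just outside it Cep135, Cep295nl and Cetn2 had 5.20, 5.40 and 5.29. Cep1 (Cntrl), Cep95 and Cep350 had no detected probe under the symbols used, although probes annotated under other symbols detected these genes. They therefore stand among all tested genes and not among the 30, whereas Cep97 also had a detected probe under its own symbol.

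**Figure D1:**
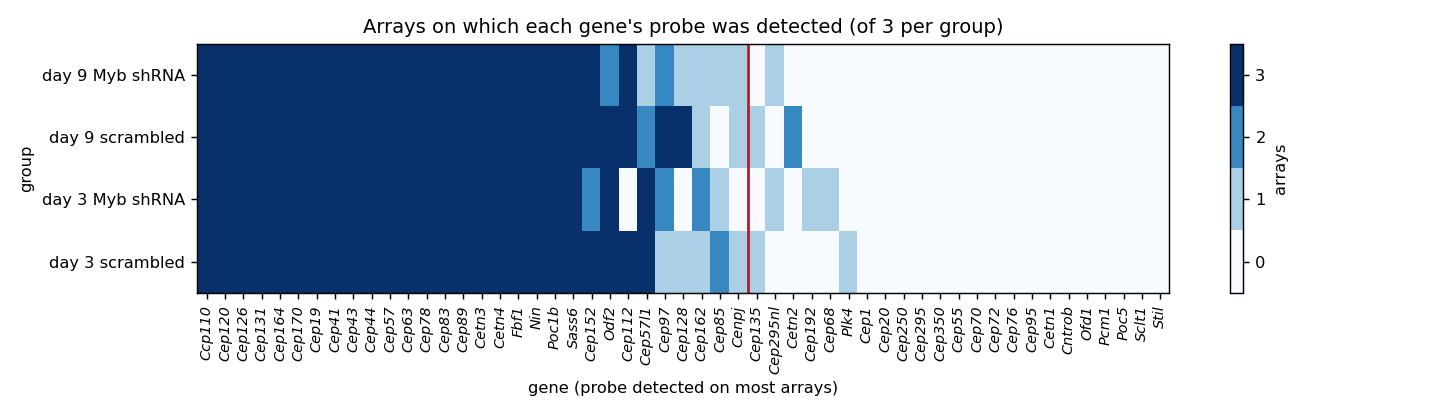
Number of arrays (0 to 3, colour) on which the best detected probe of each of the 53 genes passed the detection limit, in each group (rows). Genes left of the red line met the minimum of 3 arrays, and 21 of them are dark in every group.

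Levels given from here on are log2 normalised intensities, set side by side only within a probe. Each difference is in log2 units, with its SE. A call is a Benjamini-Hochberg adjusted p under 0.05 over all tested genes in limma, fitted to all 12 arrays. The percentage of probes detected ranged from 29.3% to 33.3% per array. Arrays with the replicate number 3 stood apart: over all tested genes their deviations from the group means correlated at 0.490 on average with each other and at -0.350 with those of the arrays numbered 1 and 2. Deviations cancel out within a group, so the negative sign follows from the positive value and adds no evidence. Averaged over the 30 genes, the number 3 arrays lay 0.093 to 0.37 above their group means, the highest being day 3 scrambled replicate 3, and the other arrays lay below theirs. None of the 4 Myb probes passed detection, so the arrays do not check the knockdown. Of 10 epithelial markers 9 were detected on the 12 arrays, Cdh1, Krt5 and Krt8 among them, and Epcam had 0 detections. 

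Myb shRNA and scrambled cultures were compared at day 9 to ask which of these genes differed late in culture. With Myb shRNA 10 of 30 genes fell and 0 rose. Over all tested genes 9.48% fell and 6.65% rose. The 10 include Cep128, which met the detection minimum only through the day 9 scrambled arrays, where it was high. Among the 21 members detected on all 12 arrays 8 fell and 0 rose. Of the 7412 genes detected on all 12 arrays 531 fell and 533 rose. Over the 30 members the median difference was -0.42, against 0.05 for all genes. In 15 members the Myb shRNA arrays all lay below the scrambled ones, which was so for 16.9% of all genes, and in 0 members did they all lie above, which was so for 19.8% of all genes. With the replicate number as a block 17 members fell, against 12.6% of all genes, and the added members were Odf2, Sass6, Cep112, Cep164, Nin, Cep131 and Cetn3. Without any number 3 array 19 fell, without day 9 Myb shRNA replicate 2 only 5 did, and without day 9 scrambled replicate 3 the count was 6. The shares of all genes that fell in these reduced fits were not computed.

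The same comparison at day 3 asked which genes differed while ciliated cells start to form. Here 16 of 30 genes fell with Myb shRNA and 0 rose, where 11.2% of all tested genes fell and 11.5% rose. The median was -0.67, against 0.00 for all genes. Groups did not overlap in 18 members, lower with Myb shRNA in each, which held for 18.7% of all genes. With the block 22 fell (17.3% of all genes). Of the 10 genes that fell at day 9, 8 also fell at day 3, which is 8 of the 16 that fell at day 3: Ccp110, Cep126, Cep19, Cep63, Cep78, Cep83, Cep97 and Cetn4. How many of all tested genes fell at both days was not computed, so this overlap is not read as particular to the members. The comparisons share no arrays but share 1 estimate of the spread. In whole cultures, fewer cells of a type and less RNA per cell cannot be told apart.

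**Figure D2:**
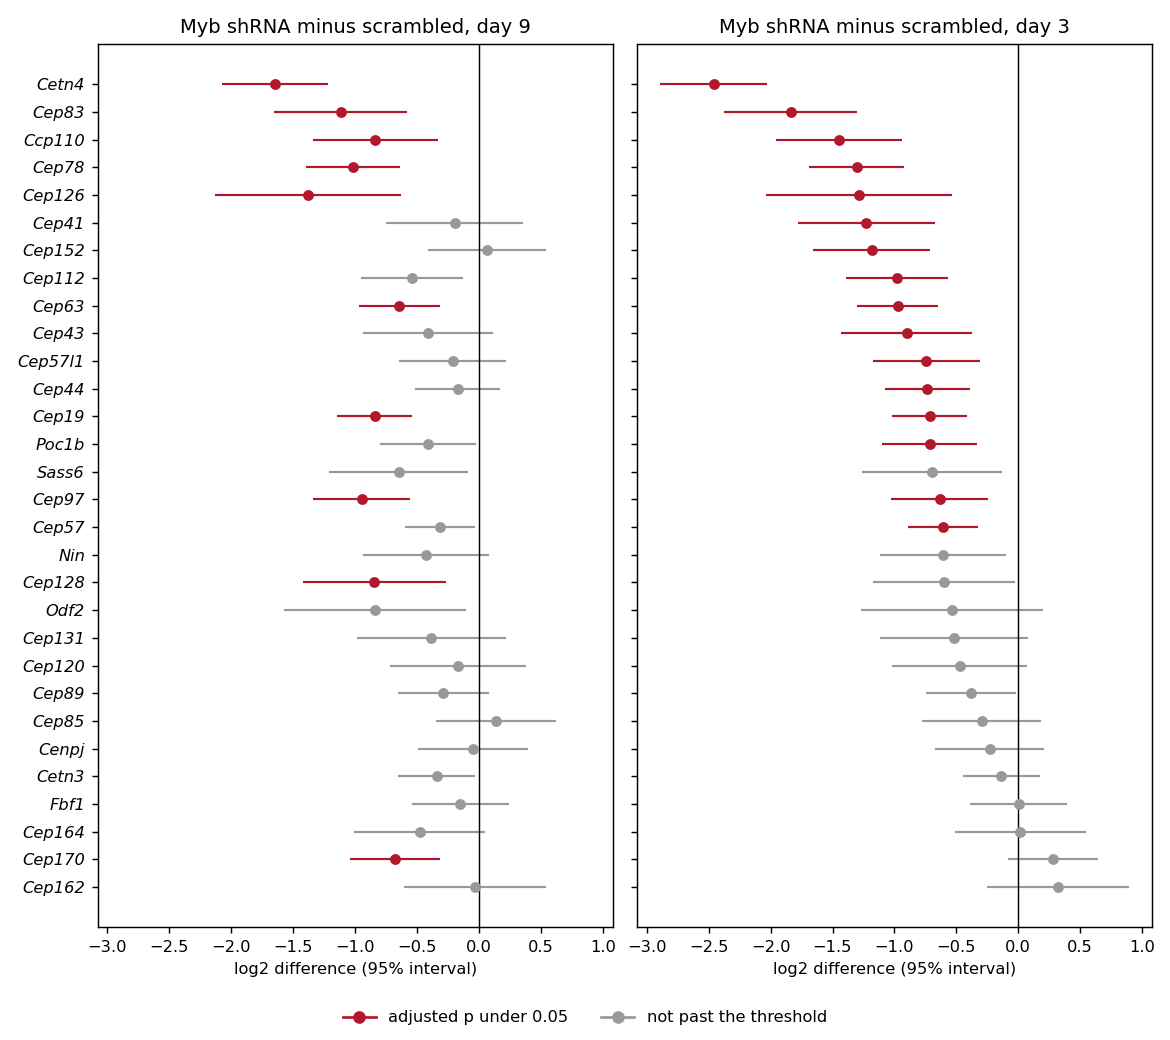
Difference between Myb shRNA and scrambled cultures on the log2 scale (x axis) at day 9 (left) and day 3 (right) for the 30 genes, with 95% intervals from limma. Red points passed the threshold, 10 at day 9 and 16 at day 3, and each of them lies left of 0. The day 9 red points include Cep128, which met the detection minimum only through the day 9 scrambled arrays.

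Ciliated cell markers moved with these calls. Of 29 tested markers from a list of 35, 26 fell at day 9 and 23 fell at day 3, and 0 rose at either day. Their summed intensity was 29760 to 43320 on day 9 Myb shRNA arrays and 75320 to 96690 on day 9 scrambled arrays. At day 3 the sum was 11840 to 12500 on Myb shRNA arrays and 31750 to 48320 on scrambled arrays. The part of this shift in the members' differences was not tested. Basal cell markers went the other way: 4 of 12 rose at day 9 and 7 of 12 rose at day 3. Their summed intensity was 18600 to 21110 on day 9 Myb shRNA arrays and 12610 to 14370 on day 9 scrambled arrays, and at day 3 it was 25550 to 35110 with Myb shRNA and 16820 to 23410 in scrambled cultures. Club cell markers fell in 5 of 9 cases at day 9, and 6 fell and 1 rose at day 3. Of 10 leukocyte markers 4 were detected, with Ptprc, Cd3e and Itgam at 0 detections, and their sum was 4430 to 5248 on day 9 Myb shRNA and 10940 to 12960 on day 9 scrambled arrays, and 1574 to 2702 on day 3 Myb shRNA and 5727 to 9931 on day 3 scrambled arrays. These 4 markers did not move together: 1 fell and 1 rose at day 9, and 2 fell and 1 rose at day 3. Of 10 fibroblast markers 4 were detected, with Col1a1, Col1a2, Col3a1 and Pdgfra at 0, and their sum was 1531 to 2011 on day 9 Myb shRNA and 917.7 to 1123 on day 9 scrambled arrays, and 5889 to 6375 on day 3 Myb shRNA and 2100 to 3354 on day 3 scrambled arrays. Of these 4, 1 rose at day 9 and 2 rose at day 3, and 0 fell. Of 6 endothelial markers 2 were detected, with Pecam1 and Cdh5 at 0. Both rose at day 9, while 1 rose and 1 fell at day 3. Their sum was 783.8 to 795.3 on day 9 Myb shRNA and 281.5 to 394.4 on day 9 scrambled arrays, and 236 to 274.3 on day 3 Myb shRNA and 532.9 to 792.4 on day 3 scrambled arrays. The part of these lists in the members' differences was not tested either. Cell cycle genes, which mark dividing cells with their own centrosome cycle, rose in 2 of 25 cases at day 9, where 6.65% of all genes rose. At day 3, 4 of the 25 rose and 3 fell, where 11.5% and 11.2% of all genes did, so these counts lie near the shares over all genes.

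Centrins are small calcium-binding proteins of the centriole lumen and basal body. Cetn4, a centrin known in mouse from ciliated cells, showed the largest differences of the 30 genes. Its levels were 10.53, 10.43 and 11.08 in day 9 Myb shRNA cultures and 12.23, 12.15 and 12.60 in day 9 scrambled cultures. At day 3 they were 7.82, 8.07 and 7.58 with Myb shRNA and 10.19, 10.04 and 10.62 in scrambled cultures. The day 9 Myb shRNA arrays overlapped the day 3 scrambled arrays, and the shRNA groups did not overlap at either day. At day 9 Cetn4 was 3.13-fold lower with Myb shRNA (-1.65, SE 0.20, adjusted p = 0.000143). At day 3 it was 5.50-fold lower (-2.46, SE 0.20, adjusted p = 2.31e-06). Cetn3, another centrin, read 10.88, 10.84 and 10.50 in day 9 Myb shRNA and 11.18, 11.15 and 10.91 in day 9 scrambled cultures. Its day 9 arms did not overlap, though the step was small. It differed by -0.34 at day 9 (adjusted p = 0.139, and 0.00616 with the block) and by -0.14 at day 3 (95% interval -0.45 to 0.18, adjusted p = 0.528). Of the centrins, Cetn1 and Cetn2 were below the detection minimum.

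Genes for the cap and length of the centriole fell at both days in 3 of 3 cases. Over all genes 9.48% fell at day 9 and 11.2% at day 3. Of these 3, Cep97 passed only by a probe outside the symbol rule. Ccp110 caps the distal end of the centriole and has to leave before a cilium can grow. It read 7.93, 7.99 and 8.50 in day 9 Myb shRNA cultures and 8.99, 8.89 and 9.06 in day 9 scrambled cultures. At day 3 it read 6.89, 6.70 and 7.11 with Myb shRNA and 8.12, 7.95 and 8.97 in scrambled cultures. The lowest values of all were those of day 3 Myb shRNA, and the groups were apart at both days. The fall was 0.84 (SE 0.23, adjusted p = 0.0267) at day 9 and 1.45 (SE 0.23, adjusted p = 0.000659) at day 3, and the second detected Ccp110 probe fell too, by 1.04 and 1.15. Leaving out any of day 9 Myb shRNA replicates 1 or 2 or of the 3 day 9 scrambled replicates ended the day 9 call (highest adjusted p = 0.107).

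Cep78, a centriolar protein linked to the control of Ccp110 levels, fell at both days. In day 9 Myb shRNA cultures it was at 7.58, 7.54 and 7.71, and in day 9 scrambled cultures at 8.64, 8.72 and 8.52. In day 3 cultures it was at 7.57, 7.30 and 7.39 with Myb shRNA and at 8.51, 8.46 and 9.21 with the scrambled shRNA. The arms did not overlap at either day, with differences of -1.02 ± 0.18 at day 9 (SE, adjusted p = 0.0015) and -1.31 ± 0.18 at day 3 (SE, adjusted p = 0.000171). These calls held in each alternative fit. Cep97, the partner of Ccp110, gave values that depend on the probe. Its brightest probe, annotated under the older symbol Lrriq2, read 5.55, 5.26 and 5.70 in day 9 Myb shRNA cultures and 6.50, 6.45 and 6.41 in day 9 scrambled cultures, with 1 of 3 and 3 of 3 arrays detecting it. It differed by -0.95 at day 9 (adjusted p = 0.00274) and by -0.64 at day 3 (adjusted p = 0.0224), a call lost when any of 4 day 3 arrays was left out (highest adjusted p = 0.101). The probe that carries the symbol Cep97 differed by -0.42 at day 9 (adjusted p = 0.145) and by 0.20 at day 3 (adjusted p = 0.464), so that 9 and 15 members fell when it was used.

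**Figure D3:**
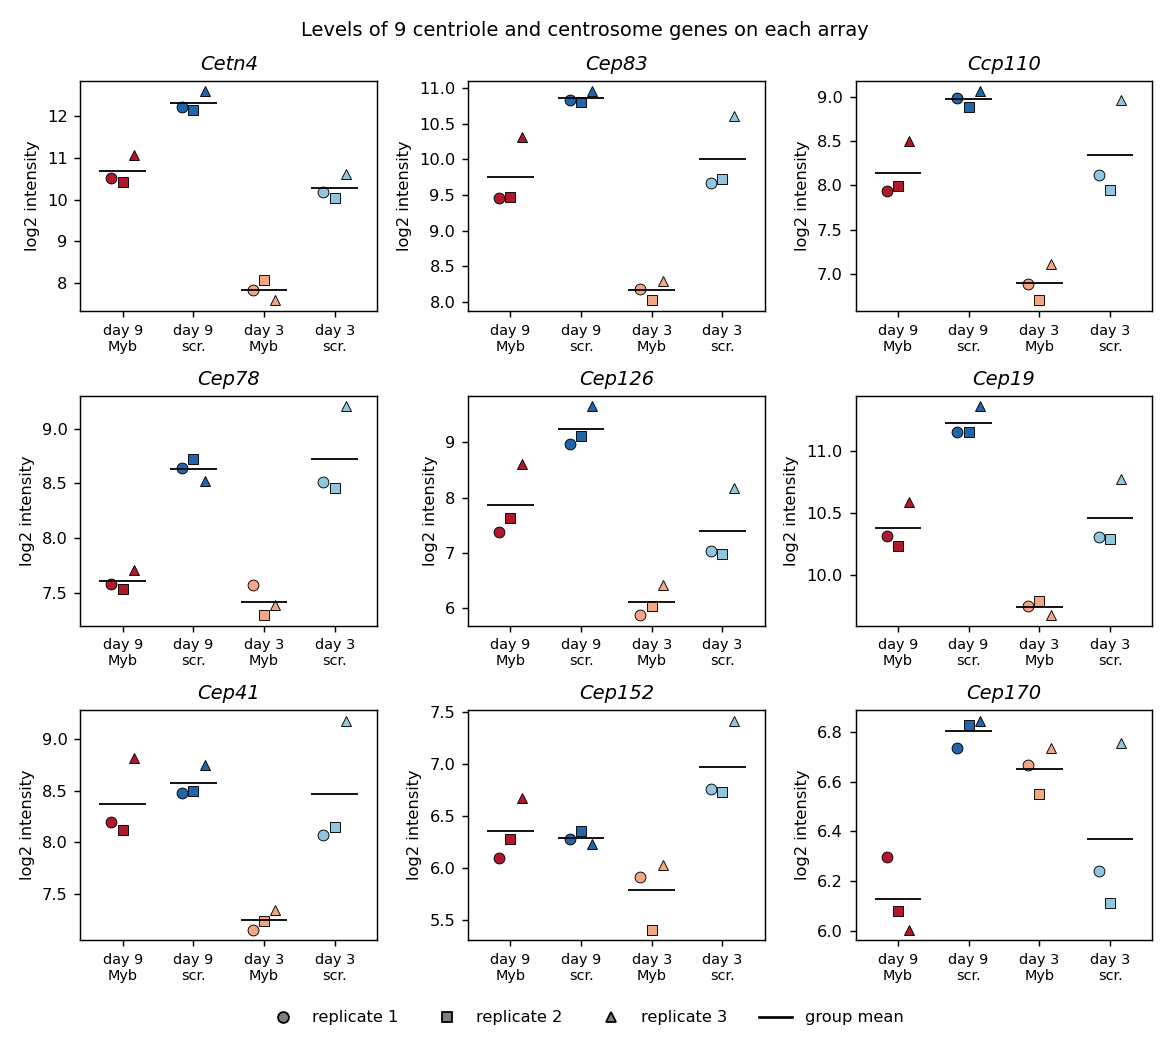
Log2 normalised intensity (y axis) of 9 genes on each array, by group (x axis: day 9 Myb shRNA, day 9 scrambled, day 3 Myb shRNA, day 3 scrambled). Symbols mark the replicate number and lines the group means. Cetn4 lies at 7.58 to 8.07 on the day 3 Myb shRNA arrays, below each of the other groups, and Cep152 overlaps between the shRNAs at day 9 only.

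Distal appendages are the blades that dock the mother centriole to the membrane. Of 4 such genes tested, 1 fell at each day, Cep83, which is needed to build the appendages. The shares over all genes were 9.48% at day 9 and 11.2% at day 3. Cep83 read 9.45, 9.48 and 10.31 in day 9 Myb shRNA cultures and 10.83, 10.81 and 10.95 in day 9 scrambled cultures. At day 3 it read 8.18, 8.02 and 8.30 with Myb shRNA and 9.67, 9.73 and 10.61 in scrambled cultures. Replicate 3 was the highest in each of the 4 groups, yet the shRNA groups stayed apart. The gene fell 2.17-fold (log2 difference -1.11, SE 0.25, adjusted p = 0.00756) at day 9 and 3.57-fold (-1.84, SE 0.25, adjusted p = 0.000169) at day 3. Cep164, the outer appendage protein that recruits ciliogenesis factors, read 7.04, 7.09 and 7.42 in day 9 Myb shRNA and 7.58, 7.50 and 7.90 in day 9 scrambled cultures, without overlap. It differed by -0.48 at day 9 (adjusted p = 0.229, and 0.0450 with the block) and by 0.02 at day 3 (95% interval -0.51 to 0.54). Cep89, also of the distal appendages, read 7.60, 7.57 and 7.72 in day 3 Myb shRNA and 7.96, 7.96 and 8.12 in day 3 scrambled cultures. The day 3 arms were apart. It differed by -0.29 at day 9 (adjusted p = 0.304) and by -0.38 at day 3 (adjusted p = 0.121, and 0.0258 with the block). Fbf1, which links the appendages to the ciliary gate, differed by -0.15 at day 9 (95% interval -0.54 to 0.24) and by 0.00 at day 3 (95% interval -0.39 to 0.40).

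Subdistal appendages anchor microtubules, and the mother centriole proteins tested with them fell in 3 of 5 cases at day 9 and 1 of 5 at day 3. Among all genes 9.48% and 11.2% fell at these days. The day 9 cases include Cep128, whose call supports nothing for the reason given below. Cep19, which brings the transport machinery of the cilium to the mother centriole, fell at both days. It read 10.31, 10.23 and 10.59 in day 9 Myb shRNA cultures and 11.15, 11.15 and 11.36 in day 9 scrambled cultures. Day 3 values were 9.75, 9.79 and 9.68 with Myb shRNA and 10.31, 10.29 and 10.77 in scrambled cultures. The shRNA arms did not overlap at either day, and the falls were 0.84 (SE 0.14, adjusted p = 0.00109) at day 9 and 0.72 (SE 0.14, adjusted p = 0.00247) at day 3. Both calls held in each alternative fit.

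Cep170, a subdistal appendage protein that binds microtubules, passed at day 9. It was at 6.30, 6.08 and 6.01 in day 9 Myb shRNA cultures and at 6.74, 6.83 and 6.85 in day 9 scrambled cultures. At day 3 the levels were 6.67, 6.55 and 6.73 with Myb shRNA and 6.24, 6.11 and 6.76 in scrambled cultures. The groups were apart at day 9 and overlapped at day 3. The day 9 fall was 0.68 (SE 0.17, adjusted p = 0.0144), and the day 3 difference was 0.28 (SE 0.17, adjusted p = 0.251). The day 9 call was lost without day 9 Myb shRNA replicate 2 (adjusted p = 0.0540) and without day 9 scrambled replicate 3 (adjusted p = 0.0538). Cep128, another subdistal protein, was detected on 1 of 3 day 9 Myb shRNA arrays and 3 of 3 day 9 scrambled arrays, with 4.89, 4.98 and 5.46 in day 9 Myb shRNA and 5.91, 5.89 and 6.06 in day 9 scrambled cultures. Its fall of 0.84 at day 9 was close to the threshold (adjusted p = 0.0463) and did not pass in 12 of 22 alternative fits. Of its 5 detections 3 were on day 9 scrambled arrays, so it met the 3-array minimum only through the group where it was high, and its day 9 call, which stands in the counts above, supports nothing. Nin and Odf2, which are found at the same appendages, differed by -0.43 and -0.84 at day 9 (adjusted p = 0.270 and 0.120, and 0.0425 and 0.00975 with the block). At day 3 they differed by -0.61 and -0.53 (adjusted p = 0.0819 and 0.278, and 0.00428 and 0.0663 with the block). The second Odf2 probe, undetected on day 3 Myb shRNA arrays, differed by -0.39 at day 9 and -0.66 at day 3 (adjusted p = 0.255 and 0.0345). The second Nin probe differed by -0.39 and -0.53 (adjusted p = 0.405 and 0.177).

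Genes of procentriole assembly fell in 1 of 7 cases at day 9 and in 4 of 7 at day 3. The shares over all genes were 9.48% and 11.2%, so the single day 9 call is not read as a result about the group. Cep63 recruits the assembly platform to the mother centriole and was the one that fell at both. It read 10.02, 9.93 and 10.20 in day 9 Myb shRNA cultures and 10.60, 10.79 and 10.68 in day 9 scrambled cultures. At day 3 it read 9.59, 9.48 and 9.64 with Myb shRNA and 10.42, 10.28 and 10.94 in scrambled cultures. The groups were apart at both days, with falls of 0.64 (SE 0.15, adjusted p = 0.0101) at day 9 and 0.97 (SE 0.15, adjusted p = 0.00048) at day 3. A second detected probe fell by 0.80 and 1.45. The day 9 call was lost without day 9 Myb shRNA replicate 2 (adjusted p = 0.0521).

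Cep152, the partner of Cep63 that holds Plk4 at centrioles and deuterosomes, passed at day 3. Its day 9 levels were 6.10, 6.28 and 6.68 with Myb shRNA and 6.28, 6.36 and 6.23 in scrambled cultures. Its day 3 levels were 5.91, 5.41 and 6.03 with Myb shRNA, detected on 2 of 3 arrays, and 6.76, 6.73 and 7.41 in scrambled cultures. The arms overlapped at day 9 (difference 0.06, 95% interval -0.41 to 0.54). At day 3 they were apart, with a fall of 1.18 (SE 0.22, adjusted p = 0.00181). Cep44, a centriole protein, fell by 0.74 (SE 0.16, adjusted p = 0.00474) at day 3. Poc1b, which stabilises centriole walls, fell by 0.72 (SE 0.18, adjusted p = 0.0114) by its brightest probe, but its other detected probes gave -0.07 and 0.11, and the mean of its probes did not pass (adjusted p = 0.308). Sass6, the cartwheel protein that sets the symmetry of a new centriole, read 5.95, 5.90 and 6.59 in day 9 Myb shRNA and 6.58, 6.82 and 6.98 in day 9 scrambled cultures, which overlapped by a single array. It differed by -0.65 at day 9 (adjusted p = 0.117) and by -0.70 at day 3 (adjusted p = 0.071), and passed at both with the block (adjusted p = 0.00616 and 0.00269). Cep120, a centriole elongation protein, and its partner Cenpj did not pass at either day, although Cep120 passed at day 3 with the block (adjusted p = 0.0224).

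The remaining centrosome, linker and microtubule genes fell in 5 of 7 cases at day 3 and 1 of 7 at day 9. Of all genes 11.2% fell at day 3 and 9.48% at day 9. Cep126, a centrosomal protein of microtubule organisation, was the one that fell at both. Its day 9 levels were 7.37, 7.63 and 8.61 with Myb shRNA and 8.97, 9.12 and 9.66 in scrambled cultures. At day 3 the levels were 5.87, 6.04 and 6.42 with Myb shRNA and 7.03, 6.97 and 8.17 in scrambled cultures. The replicates spread widely, with number 3 highest in each group, but the arms did not overlap. It fell by 1.38 (SE 0.35, adjusted p = 0.0151) at day 9 and 1.28 (SE 0.35, adjusted p = 0.0177) at day 3. The day 9 call was lost without day 9 Myb shRNA replicate 1 or 2 or day 9 scrambled replicate 3, and the day 3 call without day 3 Myb shRNA replicate 1 (highest adjusted p = 0.0744 and 0.0700).

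Cep41, which helps bring tubulin polyglutamylation into the cilium, passed at day 3. It was at 7.15, 7.23 and 7.34 in day 3 Myb shRNA cultures and 8.07, 8.15 and 9.18 in day 3 scrambled cultures. At day 9 it was at 8.19, 8.12 and 8.82 with Myb shRNA and 8.48, 8.50 and 8.75 in scrambled cultures. The day 3 arms were apart (fall of 1.23, SE 0.26, adjusted p = 0.00407) and those of day 9 overlapped (difference -0.20, 95% interval -0.75 to 0.36). Cep112 was not detected on any day 3 Myb shRNA array (5.11, 5.06 and 5.16) and was detected on the 3 day 3 scrambled arrays (5.90, 6.04 and 6.33). The limma difference, which uses the undetected values, was -0.98 (adjusted p = 0.00247). Set against the lowest detected level of the dim arrays, Cep112 was at least 1.51-fold lower, a bound that was not tested itself. Its dimmer probe differed by -0.45 (adjusted p = 0.0967). Cep57, which works with Cep63 and Cep152, and its relative Cep57l1 fell by 0.61 (adjusted p = 0.0044) and 0.74 (adjusted p = 0.0174) at day 3, and the second Cep57 probe fell at both days, by 0.67 and 0.96. Cep57l1 lost its call without day 3 Myb shRNA replicates 1 or 3 or day 3 scrambled replicate 1 (highest adjusted p = 0.0734).

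Outside these groups, Cep43, a centriolar protein, read 6.08, 5.81 and 6.29 in day 3 Myb shRNA and 6.90, 6.85 and 7.13 in day 3 scrambled cultures, without overlap. It fell by 0.90 (SE 0.25, adjusted p = 0.018) at day 3, a call lost without day 3 Myb shRNA replicate 1 or 2 (highest adjusted p = 0.0596). Cep131, the one centriolar satellite gene detected, read 6.45, 6.76 and 7.03 in day 3 Myb shRNA and 6.77, 7.12 and 7.91 in day 3 scrambled cultures, which overlapped. It differed by -0.38 at day 9 (adjusted p = 0.415) and by -0.52 at day 3 (adjusted p = 0.2), and passed at both with the block (adjusted p = 0.0477 and 0.00694).

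The days were compared within each arm to ask how these genes changed as the cultures matured. With Myb shRNA 8 genes were higher at day 9 and 1 was lower, where 9.26% and 7.43% of all tested genes were. In scrambled cultures 5 were higher and 2 lower, where 9.55% and 7.52% of all genes were. Member medians were 0.31 with Myb shRNA and 0.27 in scrambled cultures, against -0.03 and -0.07 for all genes. With the block 13 were higher and 1 lower with Myb shRNA, and 9 were higher and 3 lower in scrambled cultures. The share of all genes with the block was 13.3% higher and 11.9% lower with Myb shRNA, and 14.3% higher and 15.7% lower in scrambled cultures. Day groups did not overlap in 15 members higher and 2 lower with Myb shRNA (17% and 17.7% of all genes) and in 5 higher and 3 lower in scrambled cultures (14% and 18.3%). Without day 3 scrambled replicate 3 the scrambled count was 14 higher and 1 lower, and the share of all genes in that fit was not computed. Ciliated markers rose in 25 of 29 cases with Myb shRNA and in 26 of 29 in scrambled cultures, and their part in the members' values was not tested.

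Cetn4, Cep126, Cep83 and Cep19 rose with day in both arms. Cetn4 rose 7.24-fold (2.86, SE 0.20, adjusted p = 8.66e-07) with Myb shRNA and 4.12-fold (2.04, SE 0.20, adjusted p = 2.30e-05) in scrambled cultures. Cep126 rose by 1.76 (SE 0.35, adjusted p = 0.00311) with Myb shRNA and by 1.86 (SE 0.35, adjusted p = 0.00271) in scrambled cultures. For Cep83 the rise was 1.58 (SE 0.25, adjusted p = 0.000606) with Myb shRNA and 0.86 (SE 0.25, adjusted p = 0.0303) in scrambled cultures, the second of which was lost without any 1 of 5 scrambled arrays (highest adjusted p = 0.130). Cep19 rose by 0.64 (SE 0.14, adjusted p = 0.00628) with Myb shRNA and by 0.76 (SE 0.14, adjusted p = 0.00226) in scrambled cultures. Ccp110 rose by 1.25 (SE 0.23, adjusted p = 0.00231) with Myb shRNA and differed by 0.63 (adjusted p = 0.0833, and 0.00498 with the block) in scrambled cultures. Cep41 rose by 1.14 (SE 0.26, adjusted p = 0.008) with Myb shRNA and differed by 0.11 (adjusted p = 0.807) in scrambled cultures. Cep112 differed by 0.995 (adjusted p = 0.00259) with Myb shRNA and by 0.55 (adjusted p = 0.0637) in scrambled cultures. With Myb shRNA it was at least 1.53-fold higher at day 9, a bound that was not tested itself, and its dimmer probe differed by 0.11 (adjusted p = 0.768). Since these day changes share the day 3 Myb shRNA arrays with the shRNA comparison at day 3, the values are given side by side and not as separate evidence.

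Cep57l1 was lower at day 9 in scrambled cultures. It read 5.77, 6.15 and 5.36 in day 9 scrambled cultures, where 2 of 3 arrays detected it, and 6.71, 6.46 and 6.84 in day 3 scrambled cultures, a fall of 0.91 (SE 0.20, adjusted p = 0.00749). With Myb shRNA it differed by -0.37 (adjusted p = 0.248). Calls close to the threshold were those of Cep63 (0.47, adjusted p = 0.0473) and Cep170 (-0.52, adjusted p = 0.04996) with Myb shRNA and of Cep164 (0.76, adjusted p = 0.0497) and Cep152 (-0.68, adjusted p = 0.0496) in scrambled cultures, each of which was lost in over 10 alternative fits.

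**Figure D4:**
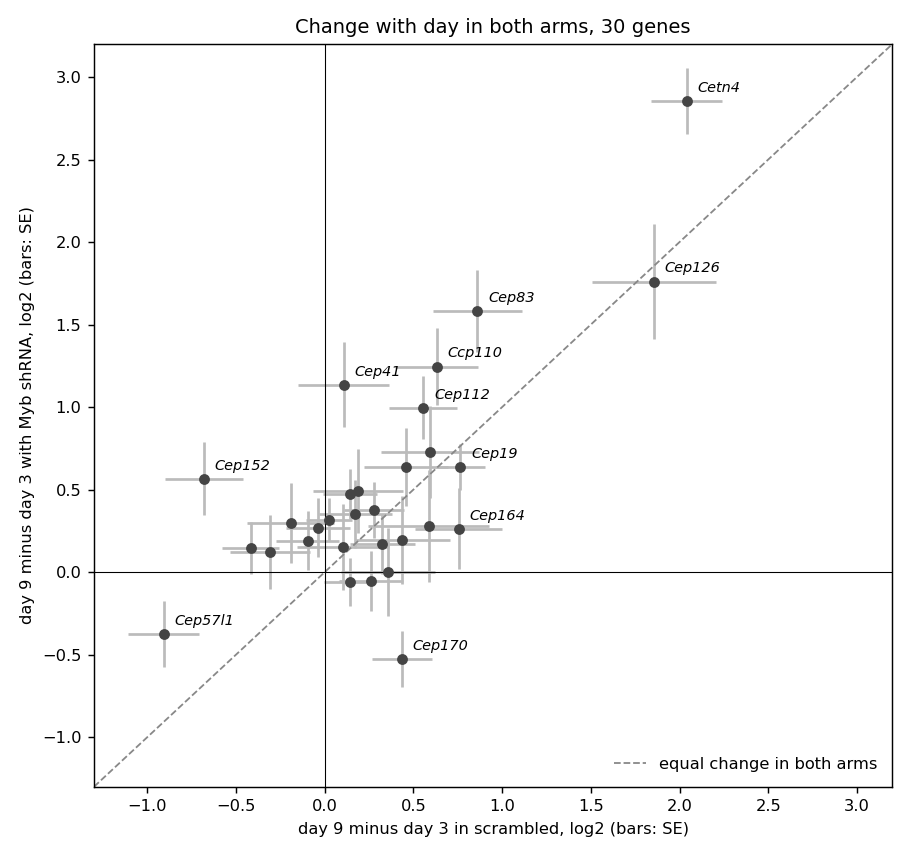
Day 9 minus day 3 with Myb shRNA (y axis) and in scrambled cultures (x axis) on the log2 scale for the 30 genes, with SE bars. The arms share no arrays. The dashed line marks equal change, and 20 of 30 genes lie above it, with Cep41 and Cep152 far from it above and Cep170 below.

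Whether the shRNA difference itself changed with day was tested as the interaction of day and shRNA. By limma 0 of 30 members passed, where 1.65% of all tested genes did, and 5 members had an unadjusted p under 0.05, against 14.2% of all genes. Cep152 (1.25, SE 0.31) and Cep170 (-0.96, SE 0.24) came closest, each with an adjusted p of 0.0654. The replicate number as a block is an alternative only, since the correlations between arrays do not show that the numbers mark paired cultures. With it Cep152, Cep41 and Cetn4 passed with a day 9 difference above that of day 3 (adjusted p = 0.00767, 0.0133 and 0.0446). Cep170 passed with one below it (adjusted p = 0.0185). With the block 7.62% of all genes passed, 3.51% as higher and 4.11% as lower. Across the 30 genes the day changes of the arms had a Pearson r of 0.73 and a Spearman rho of 0.54, as a description of genes that share arrays and depth.

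Genes outside the symbol rule were read from 2 lists of the same pathway. Of 9 tested regulators of centriole amplification, 1 fell at day 9 and 5 fell at day 3 with Myb shRNA, while 0 rose, where 9.48% of all genes fell at day 9 and 11.2% at day 3. Foxn4, a forkhead factor of multiciliated cells, averaged 5.40 ± 0.20 in day 3 Myb shRNA cultures, with 1 of 3 arrays detecting it, and 8.08 ± 0.62 in day 3 scrambled cultures (SD, n = 3 each), a difference of -2.68 (adjusted p = 1.02e-05). Ccno, a cyclin of deuterosome-based amplification, averaged 10.26 ± 0.25 in day 3 Myb shRNA cultures and 12.09 ± 0.50 in day 3 scrambled cultures (adjusted p = 6.28e-05). Mcidas, which switches the programme on, averaged 6.61 ± 0.35 in day 3 Myb shRNA cultures and 8.59 ± 0.71 in day 3 scrambled cultures (adjusted p = 0.00075). Foxj1, a main factor of motile cilia, averaged 5.38 ± 0.31 in day 3 Myb shRNA cultures, with 1 of 3 arrays detecting it, and 6.77 ± 0.17 in day 3 scrambled cultures (adjusted p = 0.00207). At day 9 Foxn4 (-0.53, adjusted p = 0.207), Ccno (0.28, adjusted p = 0.464), Mcidas (0.23, adjusted p = 0.715) and Foxj1 (-0.42, adjusted p = 0.337) did not pass. Ccdc78 was the gene that fell at both days. It differed by -1.125 at day 9 (adjusted p = 0.00681) and by -1.61 at day 3 (adjusted p = 0.00044), when no Myb shRNA array detected it. Day by shRNA interactions passed, as higher, for 3 of these 9 genes (Ccno, Foxn4 and Mcidas), where 0.746% of all genes did.

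Of 34 other tested genes of the centrosome and basal body, 5 fell at day 9, where 9.48% of all genes did, and 9 fell at day 3, where 11.2% did, and 0 rose. Their differences were above 0 in 13 of 34 cases at day 9 and 8 of 34 at day 3, with medians of -0.20 and -0.34. Hyls1, which is needed for a centriole to form a cilium, differed by -1.15 (SE 0.21, adjusted p = 0.00177) at day 9 and by -2.37 (SE 0.21, adjusted p = 3.81e-06) at day 3. Bbs4, a ciliary cargo adaptor found on satellites, fell by 0.73 (adjusted p = 0.00215) and 0.94 (adjusted p = 0.000247). Mdm1, a microtubule-binding centriole protein, fell by 1.91 at day 3 (adjusted p = 2.7e-05), when 1 of 3 Myb shRNA arrays detected it, and Tube1, the epsilon tubulin of centriole triplets, by 1.09 (adjusted p = 0.0015). Both passed the interaction as higher, Tube1 at 1.61 (adjusted p = 0.0118) and Mdm1 at 1.40 (adjusted p = 0.0306).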

How the data were processed

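Primary mouse tracheal epithelial cultures were measured on 12 Illumina bead arrays, grouped by day and shRNA from the labels. The deposited table gives, per the file headers, an intensity and a detection p-value per probe and array, and its negative values show that a background was subtracted by the authors. A second deposited table holds processed log2 values whose offset is not given in the sources used here. BeadStudio 3.0 and limma stand in the submitters' processing notes. In R 4.3.3 with limma 3.58.1, neqc corrected the background, added 16, normalised quantiles and took log2. The detection rule kept 15526 probes, of which 1733 have no gene name and were left out of the tests. The brightest probe stood for a gene, also where it lay outside the symbol rule, as for Cep97. The platform annotation may be dated, so current gene names were taken from GRCm38.p6. A model of 4 group means was fitted with lmFit and eBayes with a trend (8 residual degrees of freedom). P-values are two-sided and adjusted over 9381 genes. The fit was tested on simulated data. Precision is limited by the number of arrays.

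The members and lists were chosen with earlier results of these data known. Arrays with the same replicate number deviated together in each pair of groups compared (lowest correlation 0.107), so the number was also fitted as a block. Arrays numbered 1 and 2 also deviated together across groups (12 of 12 pairs over 0.1, mean 0.256). These correlations therefore do not show that the numbers mark paired cultures, and values with the block are an alternative only. Over all groups 16 of 18 pairs of the same number exceeded 0.1, and the interaction was not read as paired. Values on each array are given for up to 8 members per shRNA contrast and 6 per day contrast with the largest called, non-overlapping changes, and for the 2 smallest p-values per role. Up to 5 other genes per list and contrast are named. Alternatives changed the normalisation, filter, probe choice, moderation, weights and arrays used.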

Additional observations from a re-analysis of the deposited data

Results flagged for a closer look

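Cep152 lay on opposite sides between days in the arms on every array. Day 9 Myb shRNA arrays lay above the day 3 Myb shRNA arrays (6.10, 6.28 and 6.68 against 5.91, 5.41 and 6.03), a difference of 0.57 that did not pass (SE 0.22, limma adjusted p = 0.103). Day 9 scrambled arrays lay below the day 3 scrambled arrays (6.28, 6.36 and 6.23 against 6.76, 6.73 and 7.41), a difference of -0.68 (SE 0.22, limma adjusted p = 0.0496) that did not pass in 13 of 22 alternative fits. The difference between the arms, tested as the interaction, was 1.25 (SE 0.31, limma adjusted p = 0.0654, and 0.00767 with the replicate block). The interaction did not pass without the block. The block value is an alternative only, since the correlations between arrays do not show that the numbers mark paired cultures.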

How the results depend on the processing

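The counts of members called were 10 at day 9 and 16 at day 3 between the shRNAs, 9 between days with Myb shRNA, 7 between days in scrambled cultures and 0 for the interaction. The deposited processed table, other scalings, no detection filter, the mean of probes and no trend moved none of these by over 1.5 times. With no detection filter, 2 genes of the symbol rule outside the 30 also fell at day 3. These were Cep95, read by a probe under another symbol, and Plk4, which was below the detection minimum. Only probes detected on all 12 arrays gave 4 calls between days in scrambled cultures, from 21 genes. With the replicate number as a block the counts were 17 at day 9, 22 at day 3, 14 and 12 between days with Myb shRNA and in scrambled cultures, and 4 for the interaction. Array weights, whose estimation stopped before converging, gave 20, 26, 18, 21 and 9 in the same order, and turned the sign of Fbf1 at day 3 (-0.23) and of Cep162 between days with Myb shRNA (-0.36). Leaving out the number 3 arrays gave 19, 20, 11, 17 and 4. Leaving out 1 array at a time gave 5 to 13 at day 9, 12 to 17 at day 3, 7 to 13 with Myb shRNA, 4 to 15 in scrambled cultures and 0 to 1 for the interaction. Its highest counts between days, in both arms, came without day 3 scrambled replicate 3. Apart from the block, the shares of all genes called in these alternative fits were not computed. The counts are therefore not read as changes particular to the members. The probe that carries the symbol Cep97, an alternative chosen after seeing the data, turned the day 3 difference to 0.20. Apart from the block, 26 of 42 called values of single members were never lost. The cause of these changes was not tested. Of the 30 genes, 9 were not detected on all 12 arrays, and signal over background limits their values.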
